A study of Homo sapiens with 6 samples.

Results

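The immediate early response genes FOS, FOSB, JUN, JUNB, JUND, EGR1, IER2, ATF3, MYC and DUSP1 were examined in human HepG2 hepatoma cells with and without the protein-tyrosine phosphatase SHP-1. These 10 genes, chosen by name, were among 16428 genes named in at least 1 of 4 lists of occupied regions. Chromatin immunoprecipitation sequencing (ChIP-seq) was done with an antibody to RPB1, the largest subunit of RNA polymerase II, and with an antibody to RPB1 phosphorylated on serine 2 of its C-terminal repeats (pSer2). The cells were untreated SHP-1 WT HepG2 cells, which the study describes as CRISPR controls, and SHP-1 KO HepG2 cells, in which PTPN6, the gene for SHP-1, was targeted with CRISPR/Cas9 and which were grown as clonal lines. Each antibody was used once in each cell type, with 2 input libraries as background. Without replicates no test was possible, and every difference below compares a pair of libraries, so that SHP-1 loss, clone and library cannot be told apart.

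Immediate early genes are transcribed within minutes of a growth factor, stress or cytokine signal without new protein synthesis. Serum response factor with its ternary complex partners and CREB/ATF factors bind their promoters, and MAP kinases act on these factors. RNA polymerase II initiates near the gene start, often pauses just downstream of it, and carries growing amounts of pSer2 as it moves towards the 3' end, so that total RPB1 at the start and pSer2 near the end mark different steps of transcription. FOS and FOSB pair with JUN, JUNB or JUND to form the AP-1 transcription factor, EGR1 is a zinc finger factor, ATF3 is a stress-induced factor of the ATF/CREB family, MYC drives growth genes, DUSP1 is a phosphatase that inactivates MAP kinases, and IER2 is a short immediate early gene product.

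The bases just before the starts are shown because RPB1 and pSer2 regions of both cell types covered these starts, and because their short motifs differ from gene to gene. Of the 10 genes, 8 are shown, each with a RefSeq start (GRCh38.p14) covered in all 4 lists. No sequence is shown for ATF3, whose RefSeq windows lay away from the occupied start, or for MYC. The 150 bases that end right before the start are at FOS chr14:75278678-75278827 (plus strand), FOSB chr19:45467846-45467995 (plus strand), JUN chr1:58784048-58784197 (minus strand), JUNB chr19:12791336-12791485 (plus strand), JUND chr19:18281623-18281772 (minus strand), EGR1 chr5:138465329-138465478 (plus strand), IER2 chr19:13150261-13150410 (plus strand), DUSP1 chr5:172771196-172771345 (minus strand). Capitals mark TATAAA, the half-site TGACG of the cAMP response element (as CGTCA on the opposite strand, and inside the full element TGACGTCA), the AP-1-like element TGACATCA, and CArG boxes, the sites read by serum response factor.
FOS: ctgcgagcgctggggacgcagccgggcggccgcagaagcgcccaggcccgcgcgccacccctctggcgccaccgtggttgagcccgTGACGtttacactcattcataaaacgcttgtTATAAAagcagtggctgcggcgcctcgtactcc
FOSB: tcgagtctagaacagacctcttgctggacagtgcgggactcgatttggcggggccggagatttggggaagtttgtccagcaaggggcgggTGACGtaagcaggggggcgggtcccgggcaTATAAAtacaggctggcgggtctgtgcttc
JUN: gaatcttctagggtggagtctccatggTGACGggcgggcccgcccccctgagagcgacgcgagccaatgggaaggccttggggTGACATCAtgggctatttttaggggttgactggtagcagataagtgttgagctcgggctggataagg
JUNB: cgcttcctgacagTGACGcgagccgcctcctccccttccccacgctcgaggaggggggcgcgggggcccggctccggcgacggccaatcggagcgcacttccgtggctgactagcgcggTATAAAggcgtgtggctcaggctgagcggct
JUND: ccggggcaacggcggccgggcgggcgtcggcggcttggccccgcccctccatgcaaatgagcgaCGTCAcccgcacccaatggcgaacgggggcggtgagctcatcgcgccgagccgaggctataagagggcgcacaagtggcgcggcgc
EGR1: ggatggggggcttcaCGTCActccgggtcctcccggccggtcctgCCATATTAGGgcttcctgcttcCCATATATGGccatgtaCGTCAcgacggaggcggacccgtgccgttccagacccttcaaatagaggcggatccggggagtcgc
IER2: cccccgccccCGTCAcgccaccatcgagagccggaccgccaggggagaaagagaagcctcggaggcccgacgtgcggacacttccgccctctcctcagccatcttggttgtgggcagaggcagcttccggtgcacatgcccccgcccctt
DUSP1: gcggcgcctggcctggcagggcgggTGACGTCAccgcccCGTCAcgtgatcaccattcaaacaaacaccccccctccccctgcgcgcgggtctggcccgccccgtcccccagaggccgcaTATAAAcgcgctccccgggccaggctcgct

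The TATAAA motif, searched on both strands from 250 bases before to 50 bases after each start, was in 4 of the 8 promoters (FOS, FOSB, JUNB and DUSP1) against 11.5% of 35116 RefSeq promoters. It began 30 to 33 bases before the start in each of them. All 8 promoters held TGACG on one strand or the other, against 24.6% of all promoters. The full TGACGTCA, which contains the half-site on both strands, was in DUSP1 and JUND, 125 and 200 bases before the start, against 1.85% of all promoters, and the JUND match lies outside the bases shown. TGACATCA was in JUN alone, 67 bases before its start, against 2.61% of all promoters. EGR1 alone held CArG boxes in this window, 105 and 83 bases before the start, against 1.29%, and bases further upstream were not searched. GGGCGG was in 6 of the 8 (all but JUNB and EGR1) against 45.0%, and the AP-1 consensus TGACTCA was in 0 of the 8 against 4.95%. These matches describe letters in a window and not binding.

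The lists differed in length, with 46045 RPB1 regions in WT, 41605 in KO, 102674 pSer2 regions in WT and 81012 in KO. The height of a region is its fold enrichment over input at the summit. Sequencing depth is unknown from these lists, and a height has no error of its own. RPB1 regions covered the starts of 11 of 11 hepatocyte marker genes in both cell types, with a median height of 36.5 in WT and 40.2 in KO. Of the leukocyte markers, LYZ had such a region in both cell types, PTPRC, CD3E and CD14 had none, 1 of 3 endothelial markers (PECAM1, at a height of 4.38) had one in WT and 0 of 3 in KO, and 0 of 3 fibroblast markers had one. PTPN6 had no RPB1 region within 500 bp of its start in either list, so occupancy there did not check the knockout label. Under its name the lists held 3 RPB1 regions in WT and 1 in KO, and 1 pSer2 region in each cell type.

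By the gene name attached to each region in the lists, the 10 genes had 24 RPB1 regions in WT and 27 in KO, and 28 and 30 pSer2 regions. All 10 genes had a pSer2 region in both cell types. JUND had no RPB1 region under its own name, and the named RPB1 regions of JUN, JUNB and IER2 left out their starts. The starts of these genes nevertheless lay inside RPB1 regions in both lists. These regions were 3329 to 6850 bp long and were named after a neighbour, LINC01135 for JUN, HOOK2 for JUNB, STX10 for IER2 and MIR3188 for JUND. RPB1 is therefore also given by position, as the highest region within 500 bp of the canonical GENCODE start, a choice made after seeing the data, and all 10 genes then had a value in both cell types.

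**Figure D1:**
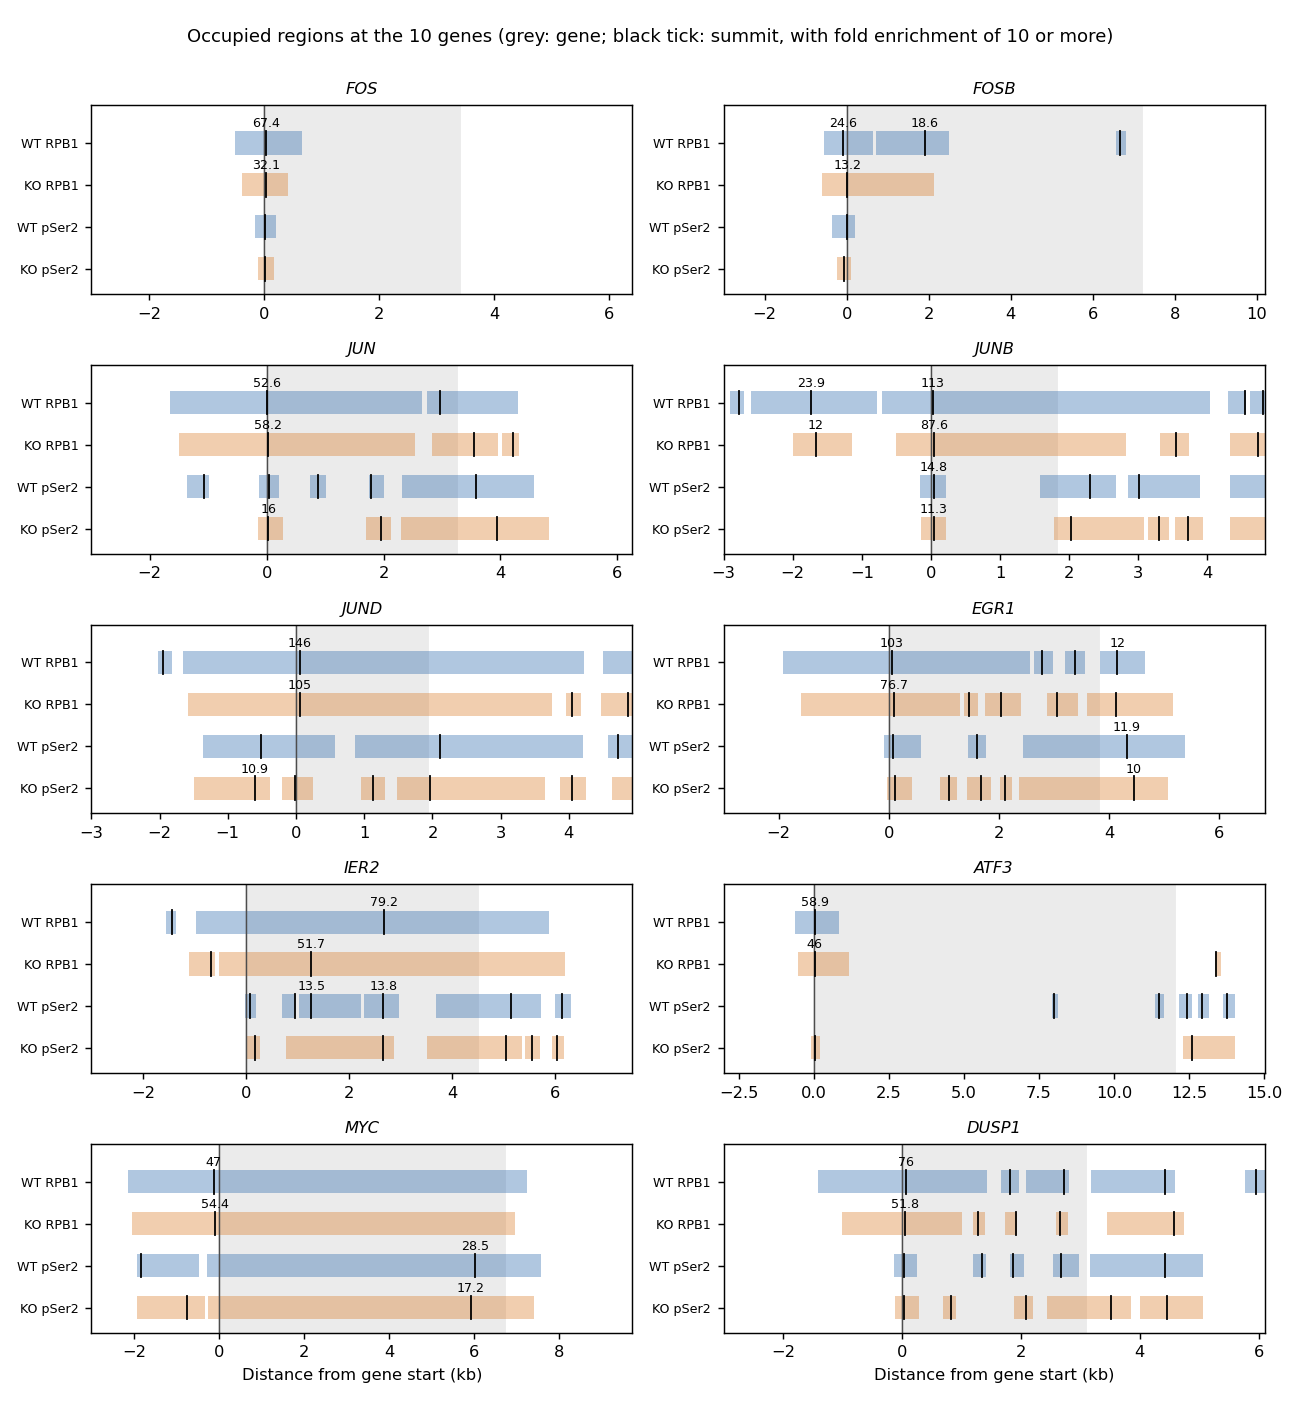
Regions of the 4 lists at each of the 10 genes, against distance from the gene start in kb, in the direction of transcription and up to 3 kb beyond either end of the gene (grey). Bars span each region, including regions named after a neighbour, black ticks are summits, and numbers are fold enrichments over input of 10 or more; RPB1 peaks within 122 bp of the start in 9 of the 10 genes, while the highest pSer2 summit of MYC, EGR1 and IER2 lies far downstream of it.

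RPB1 was high at these starts in both cell types. Of 11377 protein-coding genes with an RPB1 region near the start in both lists, the 10% with the highest mean included 8 of the 10 genes, all but FOS and FOSB. JUND had the fourth highest of the 46045 WT regions (rank 4) and rank 10 of 41605 in KO. JUNB had rank 20 and 36, and EGR1 had rank 43 and 78. FOSB was the lowest, at rank 7024 and 9155. The summits lay 7 to 61 bp past the start in WT for JUN, JUNB, JUND, FOS, EGR1, ATF3 and DUSP1, 85 bp before it for FOSB and 122 bp before it for MYC. IER2 differed, with its summit 2678 bp past the start in WT and 1273 bp past it in KO, inside a region that covered the whole gene.

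Among the AP-1 genes of the FOS family, RPB1 at the start was lower in KO. FOS at chr14:75278828-75282230 had a height of 67.4 in WT and 32.1 in KO, a KO to WT ratio of 0.476 (log2 −1.07). FOSB at chr19:45467996-45475179 had 24.6 in WT and 13.2 in KO, a ratio of 0.534 (log2 −0.91). These were the lowest ratios of the 10, and 8.50% and 15.6% of the 11377 genes had a ratio at or below them. The FOS region was also lower in the order of its list, at rank 513 in WT and 2491 in KO. FOSB carried a second RPB1 summit 1905 bp past the start in WT, at a height of 18.6, and in KO a single region of 2724 bp covered both places.

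The JUN family was not uniform. JUN at chr1:58780791-58784047 had an RPB1 height of 52.6 in WT and 58.2 in KO (log2 0.15), and 7.36% of all genes had a ratio at or above it. JUNB at chr19:12791486-12793315 had 113 and 87.6 (log2 −0.37). JUND at chr19:18279694-18281622 had 146 and 105 (log2 −0.47). JUNB and JUND were thus close to the median of all genes, and JUN lay on the other side of equality. A separate region upstream of JUNB, with its summit 1729 bp before the start in WT, had 23.9 in WT and 12.0 in KO.

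Of the other genes, MYC was again higher in KO. MYC had an RPB1 height of 47.0 in WT and 54.4 in KO (log2 0.21), and 5.66% of genes had a ratio at or above it. EGR1 at chr5:138465479-138469303 had 103 in WT and 76.7 in KO (log2 −0.42). ATF3 at chr1:212608761-212620775 had 58.9 and 46.0 (log2 −0.36). IER2 at chr19:13150411-13154911 had 79.2 and 51.7 (log2 −0.62). DUSP1 at chr5:172768096-172771195 had 76.0 and 51.8 (log2 −0.55). The 4 genes with a ratio below the median of all genes were FOS, FOSB, IER2 and DUSP1.

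**Figure D2:**
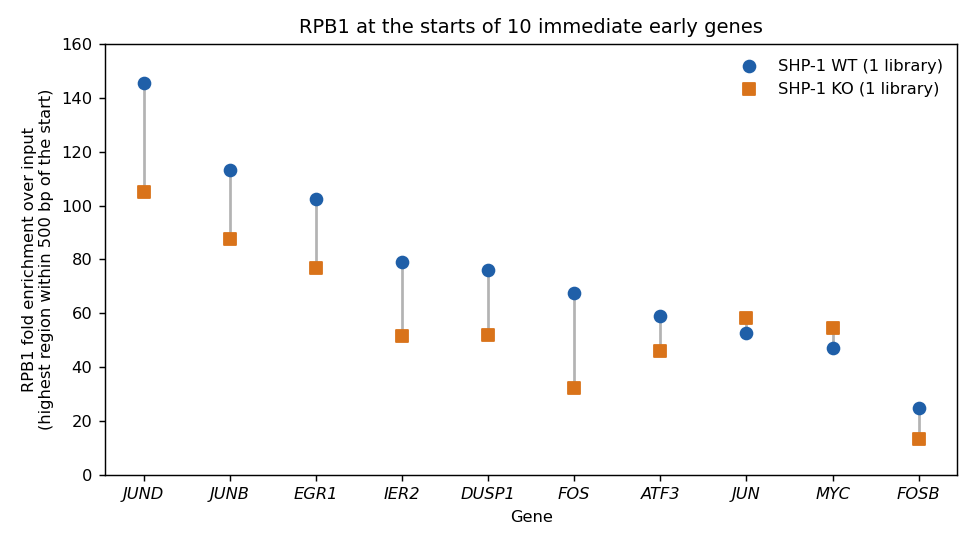
RPB1 fold enrichment over input of the highest region within 500 bp of the start of each gene, ordered by the WT value, in the SHP-1 WT library (circles) and the SHP-1 KO library (squares), with no error bars because each point is 1 library. KO is below WT for 8 genes and above it for JUN and MYC.

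Over all 11377 genes the KO list was lower, with a median log2 ratio of −0.48 (a ratio of 0.717) and 87.5% of genes below 1. The 10 immediate early genes had a median of −0.45 (0.734), with 8 lower and 2 higher. At least 1.5-fold lower were 3 of the 10 (FOS, FOSB and IER2), where 40.0% of all genes passed that fold, and 0 of the 10 were at least 1.5-fold higher, where 1.17% of all genes were. The IER2 ratio compares summits that lay 2678 bp past the start in WT and 1273 bp past it in KO. Among the 1139 genes of the top 10% the median was −0.35, with 23.7% at least 1.5-fold lower and 0.176% at least 1.5-fold higher. FOS is not among those 1139 genes, of which 1.93% had a ratio at or below its own, against 8.50% of all genes. By the gene names of the lists, RPB1 promoter regions in both were found for 6 of the 10, with a median of −0.49 against −0.46 over 11250 genes. Of these 6, FOS and FOSB were at least 1.5-fold lower (2 genes, background 38.2%) and 0 were at least 1.5-fold higher (background 2.12%). With each list scaled to the median of all genes, 1 of the 6 was at least 1.5-fold lower (FOS) and 1 at least 1.5-fold higher (MYC). The ratios of EGR1 and ATF3 then changed sign, to log2 values of 0.040 and 0.10. The counts of lower genes did not exceed the background.

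**Figure D3:**
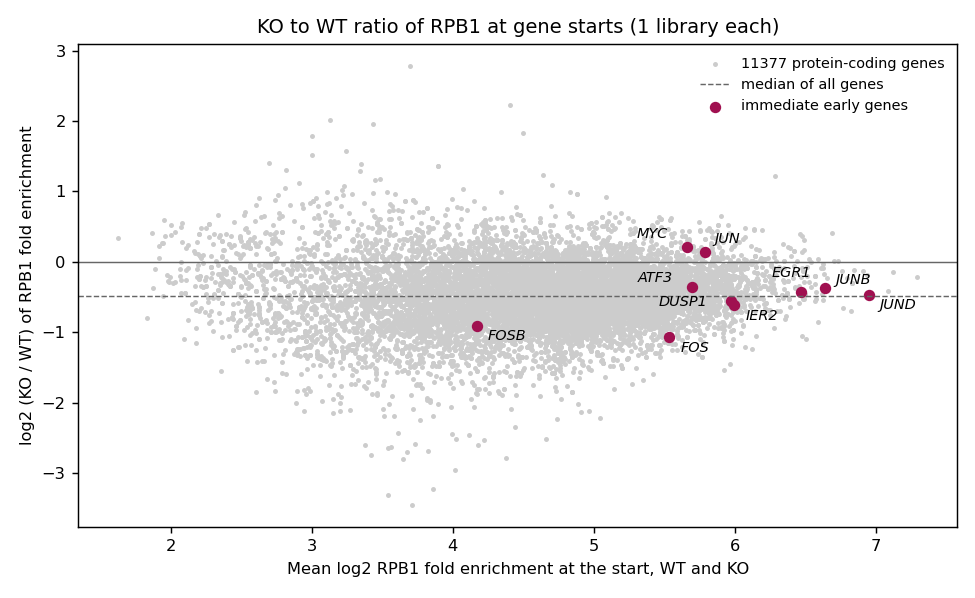
The log2 KO to WT ratio of RPB1 fold enrichment at the start (vertical) against the mean log2 enrichment of both libraries (horizontal) for 11377 protein-coding genes (grey) and the 10 immediate early genes (labelled). The dashed line is the median of all genes at −0.48; FOS and FOSB lie below it, and MYC and JUN lie above 0.

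The reach of RPB1 over the gene differed widely among the members. RPB1 regions covered 100% of the length of MYC, JUNB, JUND and IER2 in both cell types. JUN was covered to 97.1% in WT and 90.7% in KO, and EGR1 to 85.5% and 78.5%. DUSP1 was covered to 80.1% in WT and 52.0% in KO. FOSB was covered to 36.8% and 29.6%, FOS to 19.5% and 12.1%, and ATF3, which at 12015 bp is the longest of the 10, to 7.16% and 9.82%. Among the 2629 genes up to 10 kb long the median cover was 34.9% in WT and 29.3% in KO, and 9.89% and 8.03% of them were covered whole. The RPB1 region of MYC was 9380 bp long in WT and 9004 bp in KO and ran past both ends of the gene.

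pSer2 signal was next compared, first at its highest region under each gene's name. MYC had the highest value, 28.5 in WT (rank 45 of 102674) and 17.2 in KO (rank 309 of 81012), a log2 ratio of −0.73, with 7.48% of genes at or below it. FOS had 8.16 and 5.11 (log2 −0.67), and IER2 had 13.8 and 8.99 (log2 −0.62). JUN was higher in KO, at 8.88 in WT against 16.0 (log2 0.85), and its region moved from rank 2934 to rank 402. Of genes with pSer2 regions in both lists by position, 1.99% had a ratio at or above it. JUNB had 14.8 and 11.3 (log2 −0.39), and EGR1 had 11.9 and 10.0 (log2 −0.25). FOSB had 4.77 and 4.27 (log2 −0.16) and DUSP1 had 7.71 and 7.54 (log2 −0.03), which leaves both near equality. Under their own names JUND had 5.31 and 6.92 (log2 0.38) and ATF3 had 3.30 and 4.79 (log2 0.54), but by position the log2 ratios were 0.18 and 0.05.

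The members' median pSer2 log2 ratio was −0.20, against −0.09 over 10870 genes. At least 1.5-fold lower were 3 of the 10 (FOS, IER2 and MYC), with a background of 11.7% of all genes, and 1 of the 10 (JUN) was at least 1.5-fold higher, with a background of 5.71%. With each list scaled to the median of all genes, FOS and IER2 were no longer past that fold, which left 1 lower (MYC) and 2 higher (JUN and ATF3, the latter by its own name). The ATF3 value by name compares a WT summit 7995 bp past the start with a KO summit 37 bp past it. By position the unscaled log2 ratio of ATF3 was 0.05.

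MYC and JUN therefore had higher RPB1 at the start in KO but opposite pSer2 ratios at the highest pSer2 region of each gene. Of 9254 genes with both measures in both lists, 23 genes (0.249%) had an RPB1 ratio at or above that of MYC together with a pSer2 ratio at or below that of MYC. For JUN, 41 genes (0.443%) had both ratios at or above its own. MYC lies at chr8:127736231-127742951, and its pSer2 summit was 6029 bp past the start in WT and 5917 bp in KO, near the end of the gene, in regions of 7840 and 7683 bp. The JUN pSer2 summit was 36 bp past the start in WT and 30 bp in KO. In its 3' UTR region JUN had 7.15 in WT and 4.64 in KO, so the direction at JUN depended on the place in the gene. At the highest pSer2 region downstream of the start, both MYC and JUN were thus lower in KO. A weaker JUN region, with its summit 1790 bp past the start in WT, had 2.43 in WT and 2.71 in KO.

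**Figure D4:**
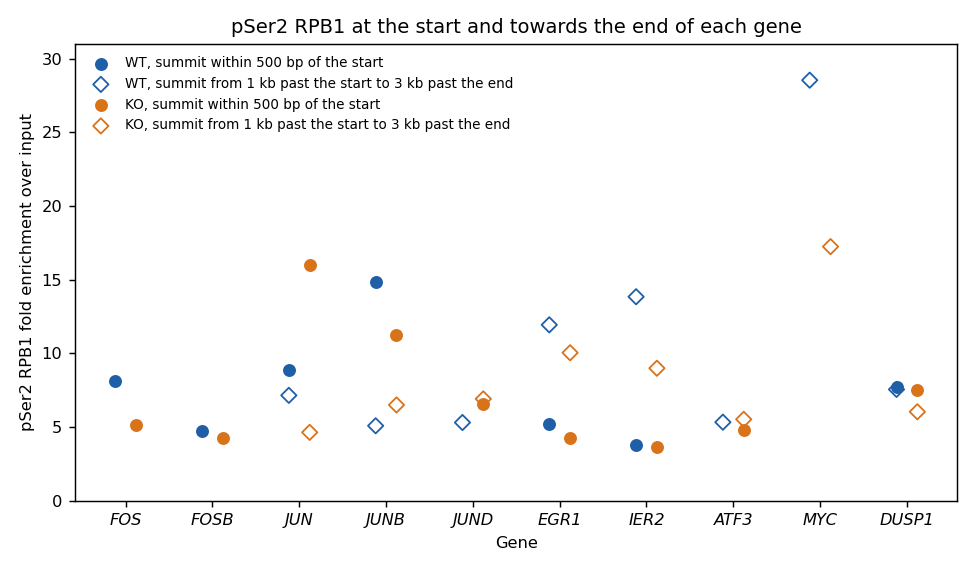
pSer2 RPB1 fold enrichment over input for each gene, for the highest region with its summit within 500 bp of the start (filled circles) and for the highest region with its summit between 1 kb past the start and 3 kb past the end (open diamonds), in WT and KO, 1 library each. FOS and FOSB have only circles and MYC only diamonds; JUN in KO lies above WT at the start and below it downstream.

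The place of pSer2 set the genes apart in both cell types. FOS and FOSB had pSer2 at the start alone, 14 to 23 bp past it in WT, and no pSer2 region with a summit beyond 1 kb. JUNB was highest at the start, with smaller regions past its end at 5.09 in WT and 6.50 in KO. EGR1 was highest 4317 bp past the start in WT and 4450 bp in KO, just beyond its annotated end, and had 5.21 and 4.27 at the start. IER2 was highest 2670 bp past the start in WT and 2669 bp in KO, and had 3.79 and 3.66 within 500 bp of it. DUSP1 had similar heights at both ends in WT, 7.71 at the start and 7.56 past the end, and 7.54 and 6.04 in KO. ATF3 had no pSer2 region at its start in WT and one of 4.79 in KO, and regions past its end at 5.33 and 5.53. JUND had its highest pSer2 summit upstream of the start, 518 bp before it in WT at 9.56 and 605 bp before it in KO at 10.9. Both regions were named after MIR3188, and only the WT one covered the start. In KO a separate region named JUND had its summit 16 bp before the start, at 6.57. Of the 11377 genes, 57.2% in WT and 52.4% in KO had a pSer2 region overlapping the 1 kb around the start, and 82.3% and 76.6% had one past the start. The same held for 9 and 10 of the 10 immediate early genes at the start, and for 8 and 8 past it.

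pSer2 past the start was then set against RPB1 at the start within each cell type. The 2 antibodies have separate scales, so only the order of genes can be read. In WT the log2 ratio of JUND was −4.78, and 0.104% of 9585 genes were at or below it. JUNB had −4.48 (0.355%). These were the lowest 2 of the 8 members with both values, and they were again low in KO, at 0.673% and 1.22% of 8763 genes. ATF3 had −3.46 (8.07%), DUSP1 −3.33 (10.7%), EGR1 −3.10 (16.6%), JUN −2.88 (24.8%) and IER2 −2.51 (39.0%). For IER2 the RPB1 and pSer2 summits in WT lay 2678 and 2670 bp past the start, so both values came from nearly the same place. MYC had −0.72 in WT, at 91.5% of genes, and 58.5% in KO. JUN was at 1.55% in KO, where its RPB1 was higher and its highest downstream pSer2 lower than in WT. The members' median was −3.22 against −2.26 over all genes in WT, and −3.08 against −1.85 in KO. All 8 members with both values were in the top 10% of genes by RPB1 at the start, the divisor here. A higher divisor gives a lower ratio, and no comparison within those genes was made. By the gene names of the lists the WT values existed for 3 genes, with EGR1 at 25.0%, DUSP1 at 17.0% and ATF3 at 2.07% of 7535 genes, and the KO values for 2, with EGR1 at 16.4% and DUSP1 at 11.6% of 6621 genes. JUNB and JUND are shorter than 2 kb, which leaves little of each gene beyond 1 kb, so most of their downstream window lies past the annotated end.

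**Figure D5:**
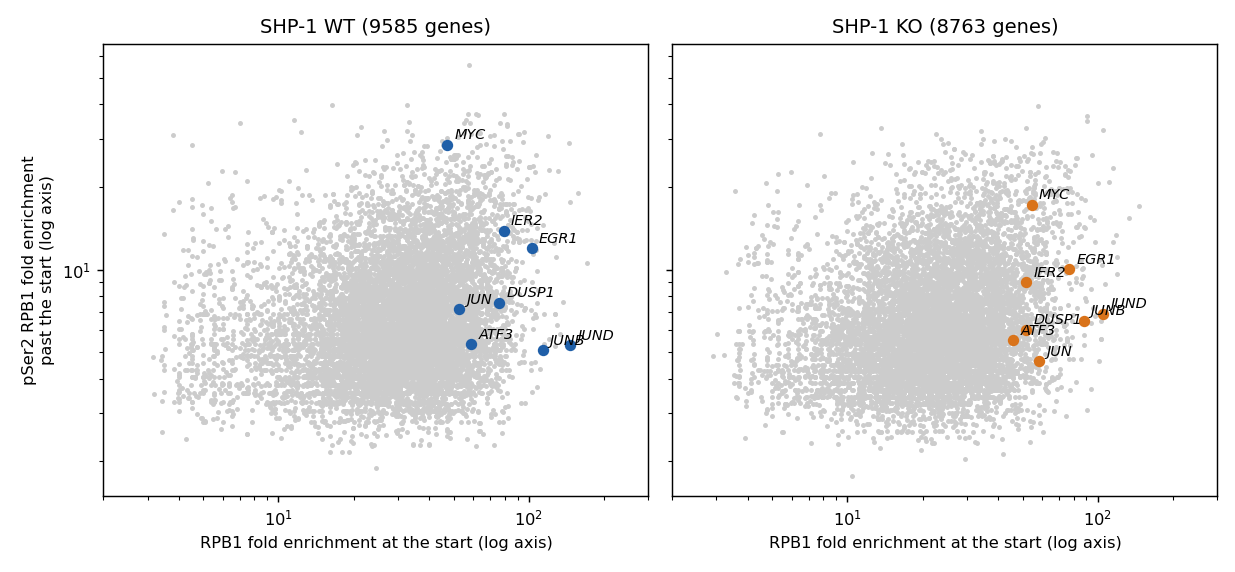
pSer2 RPB1 fold enrichment with a summit from 1 kb past the start to 3 kb past the gene end (vertical, log axis) against RPB1 fold enrichment at the start (horizontal, log axis) in WT (9585 genes, left) and KO (8763 genes, right). JUND and JUNB sit furthest right among the labelled genes in both panels, with pSer2 of 5.31 and 5.09 in WT and 6.92 and 6.50 in KO, and MYC sits highest among them.

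Most regions of these genes were present in both cell types. Of the 24 WT RPB1 regions, 79.2% overlapped a KO RPB1 region by at least 1 bp (95% Wilson interval 59.5% to 90.8%), against 61.9% of all WT RPB1 regions. Of the 27 KO RPB1 regions, 77.8% overlapped a WT region (59.2% to 89.4%), against 74.9%. For pSer2 the shares were 89.3% of 28 WT regions (72.8% to 96.3%), against 52.2%, and 86.7% of 30 KO regions (70.3% to 94.7%), against 69.9%. Regions of 1 gene are not independent, and the intervals cover counting error only. The highest region without a counterpart was at 7.46 and 5.02 for RPB1 in WT and KO and at 3.30 and 4.79 for pSer2. Within their lists these lay at percentiles 65.0 and 39.5 for RPB1 and 33.4 and 78.4 for pSer2. The KO pSer2 region at 4.79 had its summit 37 bp past the ATF3 start. The WT RPB1 region at 7.46 lay 17981 bp before the DUSP1 start, in distal intergenic sequence.

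The RPB1 regions more than 10 kb from the starts that were present in both lists were lower in KO. RPB1 at the start was lower in KO for 87.5% of all genes, and no share over all distal regions was computed. An RPB1 region 19930 bp before the FOS start had 8.61 in WT and 6.05 in KO. A region 49804 bp before the canonical ATF3 start had 15.2 and 10.2. Intergenic regions beyond IER2, with summits 12405 and 17377 bp past its start in WT, had 24.6 and 18.6 in WT and 20.0 and 12.9 in KO. The pSer2 regions at such distances that were present in both lists were not lower in KO. The highest one past the end of ATF3 had 5.33 in WT and 5.53 in KO, and the 3 beyond IER2 had 2.84 to 2.93 in WT and 3.03 to 3.16 in KO. Those beyond IER2 lay low in their lists, at percentile 15.7 or below in WT and 21.8 or below in KO. A pSer2 region 11503 bp past the ATF3 start, at 3.56 in WT, had no KO counterpart. The intergenic regions were named after IER2 as the nearest gene, and the lists do not tie them to its transcription.

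RPB1 at other immediate early genes was mostly lower in KO, as it was over all genes. Of 42 such genes, 35 had an RPB1 region at the start in both lists, with a median log2 ratio of −0.36 against −0.48 over all genes. Higher in KO were 7 of the 35, beside 12.5% of all genes. At least 1.5-fold lower were 12 and at least 1.5-fold higher 0, beside the 40.0% and 1.17% of all genes. KLF6, a zinc finger factor, was the highest, at 120 in WT and 111 in KO. GADD45A, a stress response gene, had 97.3 and 70.6, and MCL1, an inhibitor of apoptosis, had 89.0 and 57.8. More than 2-fold lower were the nuclear receptor NR4A1 (45.4 and 22.3), the matricellular gene CCN1 (51.9 and 25.7), the small Maf factor MAFF (51.6 and 23.8), the MAP kinase phosphatase DUSP5 (17.0 and 6.33) and, by position alone, the antiproliferative gene BTG1 (66.6 and 32.8). KLF4 and NR4A2 had a promoter region in WT alone, at 11.0 and 9.74. By name the mRNA decay factor ZFP36 was 5.29 in WT and 58.1 in KO, yet by position it was 66.8 and 58.1, since its WT start region was named after MIR4530. In pSer2 by position, 29 of the 42 had values in both lists, with a median of −0.28 against −0.10 over 10414 genes. Of the 29, 9 were at least 1.5-fold lower and 0 at least 1.5-fold higher. The shares of all genes past that fold, 11.7% and 5.71%, were taken by name.

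Regulators of these genes were examined in the same way. All 22 had RPB1 at the start in both lists, with a median log2 ratio of −0.58 against −0.48 over all genes. At least 1.5-fold lower were 10 of them, close to the 40.0% of all genes, and 1 (ELK3, a ternary complex factor, at 10.5 and 16.4) was at least 1.5-fold higher, beside 1.17%. MRTFB, a coactivator of serum response factor, had 56.3 in WT and 39.9 in KO. SRF itself had 36.9 and 16.5, and the ribosomal S6 kinases RPS6KA1 and RPS6KA3 had 54.9 and 26.4, and 32.6 and 14.5. RPS6KA5, a kinase of the same family, had 12.4 and 5.62 by position. ATF2 had a promoter region under its name in KO alone (3.36), and by position it had 24.5 and 29.7. In pSer2 by position, 19 of the 22 had values in both lists, with a median of −0.13. Of the 19, 3 were at least 1.5-fold lower and 0 at least 1.5-fold higher. The shares of all genes past that fold, 11.7% and 5.71%, were again taken by name.

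Likeness to the group was measured for the 6 members with all 4 values under their own names, FOS, FOSB, EGR1, ATF3, MYC and DUSP1, and left out JUN, JUNB, JUND and IER2. The genes outside the set closest to the medians of these 6 were RHOA, SIRT5, LOC101927989, SPINDOC and SEPTIN10. The measure was the Euclidean distance over log2 RPB1 promoter and log2 pSer2 heights in WT and KO, among 8212 genes, and it ran from 0.12 for RHOA to 0.20 for SEPTIN10. RHOA had RPB1 heights of 58.0 in WT and 48.7 in KO and pSer2 heights of 7.91 and 6.28.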

How the data were processed

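RPB1 and pSer2 RPB1 ChIP-seq of HepG2 cells, either SHP-1 KO or control, was analysed from the region lists deposited by the authors, with a single library for every combination of antibody and cells. As the authors describe, Trimmomatic was used for adapter removal, BWA for alignment to hg38 and MACS2 for narrow peaks, each library being set against its input. Versions are not given in the sources used here. For each region the deposited lists give a summit ratio (fold enrichment relative to input), the −log10 p-value and q-value, and a score, together with the genomic feature and nearest gene. The smallest −log10 q was 1.31. Weaker regions are therefore absent, and a gene without a region had no value rather than 0. Enrichments are not corrected for depth or efficiency between libraries. The authors also deposited a csaw comparison of RPB1 between KO and WT, with numbers of windows up and down, p-values and adjusted p-values, which was not used.

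Each gene was given its highest RPB1 promoter region, its highest pSer2 region of any class, and its highest pSer2 gene body or downstream region under the authors' gene names. Positions came from GENCODE release 44 (hg38), with RPB1 read within 500 bp of the canonical start. The pSer2 ratios by position used the highest region overlapping the span from 500 bp before the start to 3 kb past the end. pSer2 past the start used the highest region with its summit from 1 kb past the start to 3 kb past the end. KO to WT ratios were described beside all genes, and a ratio of at least 1.5-fold was counted as a call. No test was made and no p-value was computed. Overlap shares have 95% Wilson intervals. The computation was tested on simulated data. Alternatives were region scaling, percentiles, a −log10 q of at least 5, a 2-fold threshold, summed signal and other gene windows. The members and lists were chosen with earlier results of these data known. All members were named. Of the other lists, the 3 genes with the highest WT RPB1 promoter value, those with a promoter region in 1 cell type and those past 2-fold were named, and ELK3, BTG1 and RPS6KA5 were added after their values were seen. Some items of these lists are not reported here. The 5 genes nearest to the medians of 6 members were also named. Python 3.11.15, NumPy 2.4.6, pandas 2.3.3, SciPy 1.17.1 and Matplotlib 3.10.9 were used.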

Additional observations from a re-analysis of the deposited data

How the results depend on the processing

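All values rest on 1 library per condition, depth is unknown, and no error can be given. No paired analysis was possible because each group has 1 library. The RPB1 promoter median log2 ratio of the members, −0.49, was −0.027 with each list scaled to the median of all genes, −0.93 from enrichment times length, −0.42 over any region of the gene, −0.45 over the gene with 3 kb on each side and also within 500 bp of the start, and −0.094 within 500 bp when scaled to the top 10% of genes, while the difference of within-list percentiles was −0.40 points. The count of members at least 1.5-fold lower, 2 in the report, was 1 when scaled to all genes and at 2-fold, 4 from enrichment times length, and 3 over any region, over the gene with 3 kb on each side and within 500 bp of the start, where scaling to the top 10% of genes made it 1, and the count of higher members, 0, was 1 after scaling to all genes. The pSer2 median of −0.20 was −0.11 scaled, −0.25 at a −log10 q of at least 5, −0.28 from enrichment times length, −0.47 in gene body and downstream regions only, and −0.74 percentile points. Its count of 3 lower members was 1 scaled and 0 at 2-fold, and its count of 1 higher member was 2 scaled, 0 at 2-fold and 0 in gene body and downstream regions only. The pSer2 log2 ratio of JUN, 0.85, reversed to −0.050 from enrichment times length and to −0.62 in gene body and downstream regions only, where its start region was left out. pSer2 over RPB1 had a median of −3.33 in WT, which was −3.22 at a −log10 q of at least 5 and also by position, −3.04 with promoter pSer2 included, −3.67 from enrichment times length and −3.93 percentile points. In KO it was −3.02, and then −2.71 with promoter pSer2 included, −2.91 from enrichment times length, −3.08 by position and −5.18 percentile points. When 50% of both regions had to overlap, the shares in common were 54.2% and 48.1% for WT and KO RPB1 and 71.4% and 66.7% for WT and KO pSer2, and at a −log10 q of at least 5 they were 100% for KO RPB1 and WT pSer2. Of the values of single genes under the alternatives, 57 stayed within the set margin, 42 moved beyond it and 2 (both of JUN) reversed. Those that moved include changes of sign when each list was scaled to the median of all genes. The RPB1 log2 ratios of EGR1 and ATF3 became 0.040 and 0.10, and the pSer2 log2 ratio of DUSP1 became 0.063. Apart from the choice of regions and the scaling, the cause of a move was not tested. The by-position values and the scaling to the top 10% were chosen after seeing the data.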
